A study of Mus musculus with 7 samples.

Results

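The 10 genes described here encode nucleases that degrade DNA or RNA, mostly outside the cytosol, and receptors that sense such nucleic acid. They are Dnase1l3, Dnase1l1, Dnase2a, Trex1, Pld3, Pld4, Tlr3, Tlr7, Tlr9 and Unc93b1. They were taken by symbol from the 52636 genes of a count table, and all 10 were found in it. Trex1 differs from the secreted and lysosomal enzymes among them in being a nuclease of the cytosol and of micronuclei. The table comes from RNA sequencing of polyadenylated RNA from mouse liver endothelial cells isolated by fluorescence-activated cell sorting. It compares 3 libraries whose genotype label is Control with 4 libraries labelled as knockout (KO) of c-Maf, a transcription factor encoded by Maf. The sources used here do not give strain, age, sex, sorting markers, the deleted part of Maf or what drove its deletion, and the controls are called WT in the series' design. They also do not say that each library came from its own animal, so the p-values rest on the variation among libraries, part of which could be technical.

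DNA released by dying cells circulates in blood, largely as chromatin fragments, and is cleared by DNases and by phagocytic cells. The endothelium of the liver sinusoids is among the most active scavenging endothelia of the body and takes up circulating macromolecules into lysosomes. DNASE1L3 is a secreted DNase that can cut DNA wrapped in chromatin, and its loss causes lupus-like disease. Nucleic acid that reaches endosomes and lysosomes is degraded by DNase II, encoded by Dnase2a, and by the single-strand exonucleases PLD3 and PLD4. What persists there can be bound by the Toll-like receptors TLR3 for double-stranded RNA, TLR7 for single-stranded RNA and TLR9 for DNA with unmethylated CpG, which the chaperone UNC93B1 carries from the endoplasmic reticulum to endosomes.

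Library totals ran from 24772716 to 32960007 counts. Values are CPM, the usual depth-scaled read count, with library sizes adjusted by the trimmed mean of M-values (TMM), and a gene is called changed when edgeR's quasi-likelihood test gave a Benjamini-Hochberg adjusted p under 0.05 over the 15512 genes tested. Maf was lower in every KO library, with KO 1 at 1.47%, KO 2 at 8.08%, KO 3 at 6.33% and KO 4 at 1.92% of its control mean. Endothelial markers summed to 12277 to 13542 CPM in controls and 7964 to 10678 CPM in KO libraries. Sinusoidal endothelial markers summed to 30789 to 34956 CPM and 7275 to 11823 CPM, with 7 of 8 called lower. Hepatocyte markers summed to 247 to 269 CPM in controls and to 1207, 301, 368 and 583 CPM in KO 1 to KO 4, with 4 of 7 called higher. KO 1 and KO 4 therefore had the least Maf and the most hepatocyte RNA, and calls of named genes that were lost without both are stated.

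Of the 10 genes, 8 had enough counts to be tested, Trex1 and Tlr9 being the exceptions, and 6 of the 8 were lower in KO libraries: Dnase1l3, Dnase2a, Pld3, Unc93b1, Tlr3 and Tlr7. Over all genes tested, 22.2% were called lower and 23.0% higher. No member was called higher by edgeR, and none was higher at an unadjusted p under 0.05. The count is 0 as well with DESeq2 and with limma-voom. Tlr7 passed the filter on low counts only through the controls, and without it 5 of 7 were lower. The median log2 fold change of those 7 was -0.55, beside 0.04 over all genes tested. The members were chosen with earlier results of these data known, so these comparisons are a description. Control and KO libraries did not overlap for 7 of the 8, which was so for 50.3% of all genes tested. That count includes Tlr7, which the filter let in through the controls, and Dnase1l1, which was not called. RNA was taken from a sorted population, so fewer cells of a type and less RNA per cell cannot be told apart in any of these values.

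**Figure D1:**
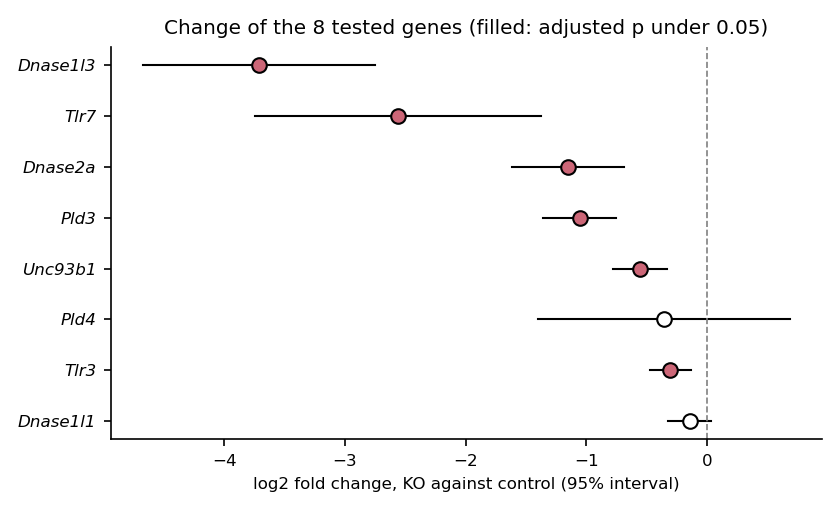
Log2 fold change of KO against control libraries (x axis) for the 8 tested genes, with 95% intervals as lines. Filled points are the 6 genes called lower, led by Dnase1l3 at -3.71, and the intervals of Dnase1l1 and Pld4 cross 0.

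Levels between genes were compared per length, as CPM per kilobase of annotated exon. In controls the order was Dnase1l3 at 1195 ± 67.5 (SD, n = 3), Unc93b1 at 57.1 ± 5.28, Pld3 at 33.5 ± 3.16, Dnase1l1 at 16.4 ± 0.268, Tlr3 at 11.8 ± 0.501, Dnase2a at 5.17 ± 0.287, Pld4 at 0.591 ± 0.246, Tlr7 at 0.187 ± 0.121 and Tlr9 at 0.0311 ± 0.00695 CPM per kilobase. No neighbours in that order overlapped between control libraries. Dnase1l3 ranked 14 of 12904 protein-coding genes tested, which puts a single secreted nuclease among the most abundant transcripts of these cells, and Unc93b1 ranked 796. The 2 receptors of single-stranded RNA and of DNA stood at the other end, with 12 to 32 reads per control library for Tlr7 and 2 or 3 for Tlr9. In KO libraries Dnase1l3 still led on average, at 91.1 ± 50.9 (SD, n = 4), but its range of 40.5 to 136.4 overlapped that of Unc93b1, 35.1 to 42.0 CPM per kilobase. The ranges of Pld3, 13.1 to 19.2, and Dnase1l1, 13.7 to 15.7, also overlapped there.

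**Figure D2:**
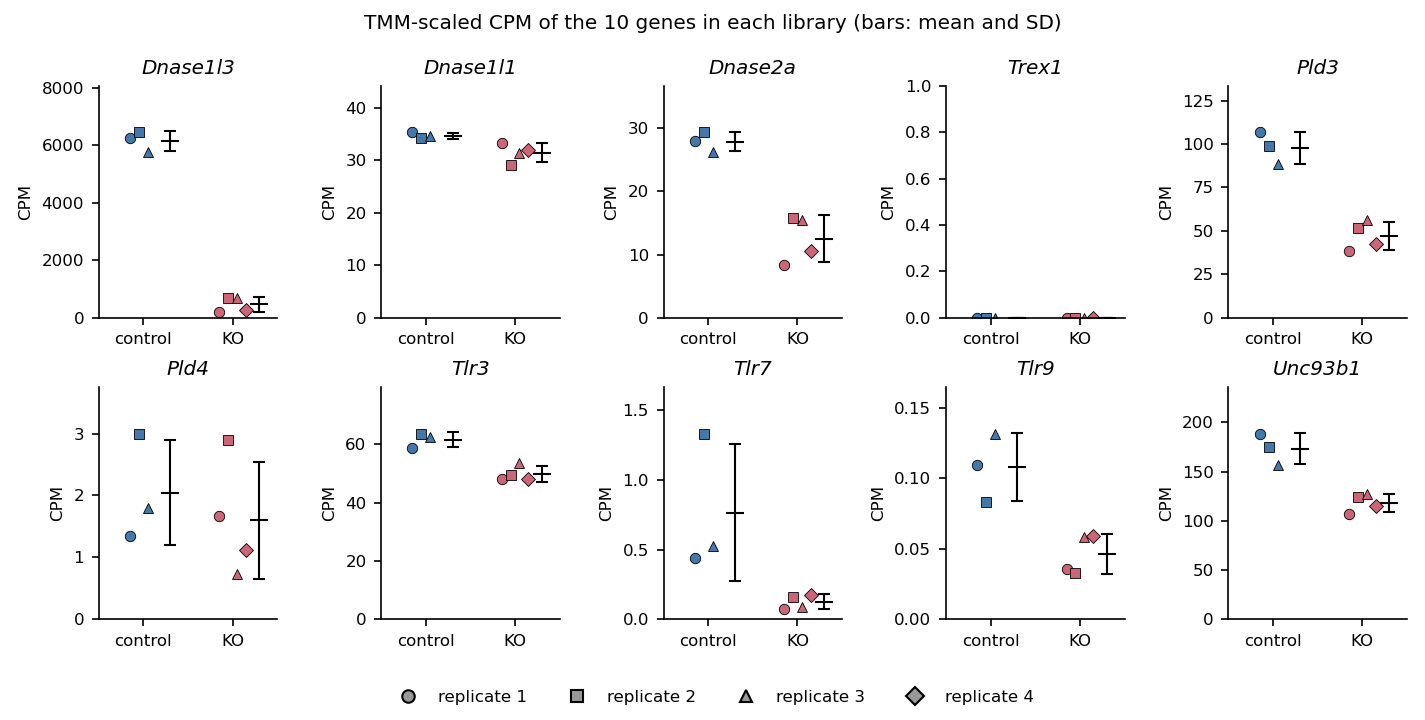
TMM-scaled CPM (y axis, from 0) of the 10 genes in each of 3 control and 4 KO libraries, with the mean and SD of each group as bars and the marker shape giving the replicate. Dnase1l3 fell from 6154 to 469 CPM on average, Dnase1l1 differed little, Pld4 overlapped, and Trex1 is at 0 in every library.

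Dnase1l3 (ENSMUSG00000025279), on the minus strand at chr14:7964533-7994573 of GRCm38, encodes the secreted chromatin-cutting DNase. What sets that enzyme apart from DNase I is a stretch of basic residues at its C-terminal end, which is needed for its action on chromatin. The last 25 codons before the stop are shown for the 4 genes of the DNase I family because this is where they part, with the codons of lysine and arginine in capitals, 5′ to 3′ on the coding strand, read from GRCm38 with GENCODE M21.
Dnase1l3: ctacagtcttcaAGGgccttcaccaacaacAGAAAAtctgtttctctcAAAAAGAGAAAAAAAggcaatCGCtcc
Dnase1: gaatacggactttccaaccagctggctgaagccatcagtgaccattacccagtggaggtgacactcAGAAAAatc
Dnase1l1: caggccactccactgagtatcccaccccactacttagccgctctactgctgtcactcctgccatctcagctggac
Dnase1l2: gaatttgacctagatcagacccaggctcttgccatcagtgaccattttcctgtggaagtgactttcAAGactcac
Lysine and arginine took 9 of these 25 codons in Dnase1l3 (36%) against 12.3% of the rest of its coding sequence, and none of the 25 coded for an acidic residue. They took 2 of 25 in Dnase1, 1 in Dnase1l2 and 0 in Dnase1l1. The 25 codons lie in 1 exon at chr14:7967762-7967836 for Dnase1l3 and in 1 exon at chrX:74273572-74273646 for Dnase1l1. The gene with the basic end was therefore the abundant one of the family, and the only one of the 4 called lower.

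Dnase1l3 measured 6244, 6447 and 5770 CPM in controls 1 to 3. It measured 208.8, 686.6, 702.4 and 278.4 CPM in KO 1 to KO 4. Every KO library lay far below every control, and KO 1 and KO 4 lay below KO 2 and KO 3. As a part of all reads counted, the gene took 0.564, 0.565 and 0.531% of the control libraries and 0.0229, 0.0723, 0.0732 and 0.0316% of the KO libraries, which is scaling by library totals. The mean went from 6154 ± 347 (SD, n = 3) to 469 ± 262 CPM (SD, n = 4), 13.1-fold lower, with a log2 fold change of -3.71 (SE 0.425, 95% interval -4.67 to -2.76, adjusted p 0.000187). KO libraries held 3.39, 11.2, 11.4 and 4.52% of the control mean, and the rank per length moved from 14 to 385. Without KO 1 and KO 4 the log2 fold change was -3.15, and over all 18 alternatives it lay between -4.07 and -3.15, called lower in each.

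The other members of the DNase I family were not called changed. Dnase1l1 (ENSMUSG00000019088, chrX:74273217-74282337, minus strand), a relative of DNase I that is held at membranes, measured 35.4, 34.2 and 34.6 CPM in controls and 33.3, 29.1, 31.5 and 32.0 CPM in KO 1 to KO 4. All KO libraries were below all controls, by a small margin. The means were 34.7 ± 0.569 (SD, n = 3) and 31.5 ± 1.76 CPM (SD, n = 4), and the log2 fold change of -0.14 (SE 0.0792) was not called (adjusted p 0.167). Its 95% interval, -0.32 to 0.04, corresponds to 0.800 to 1.03 times the control level. The sign rests on the scaling: with library totals in place of TMM the log2 fold change was 0.12 (adjusted p 0.273), again not called. Dnase1, encoding DNase I, measured 4.30 ± 0.0613 and 4.70 ± 0.554 CPM (adjusted p 0.539), and Dnase1l2 measured 3.65 ± 1.22 and 4.75 ± 1.10 CPM (adjusted p 0.286).

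The make-up of DNase transcripts shifted through the one gene. Summed per kilobase over Dnase1, Dnase1l1, Dnase1l2, Dnase1l3, Dnase2a and Dnase2b, the 6 genes came to 1219 ± 67.2 CPM per kilobase in controls and 111.8 ± 50.2 in KO libraries. Dnase1l3 made up 98.0, 98.1 and 97.8% of that sum in controls and 65.3, 87.1, 86.8 and 71.9% in KO 1 to KO 4. The share of Dnase1l1 went from 1.27 to 1.43% in controls up to 25.3, 8.96, 9.45 and 20.1% in KO 1 to KO 4, while its own level was not called changed. These shares describe transcripts and not enzyme activity. Dnase1 shares 18.1% and Dnase2a 30% of its exon bases with genes on the opposite strand. Reads there appear not to have been counted, so the shares of these genes are understated.

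**Figure D3:**
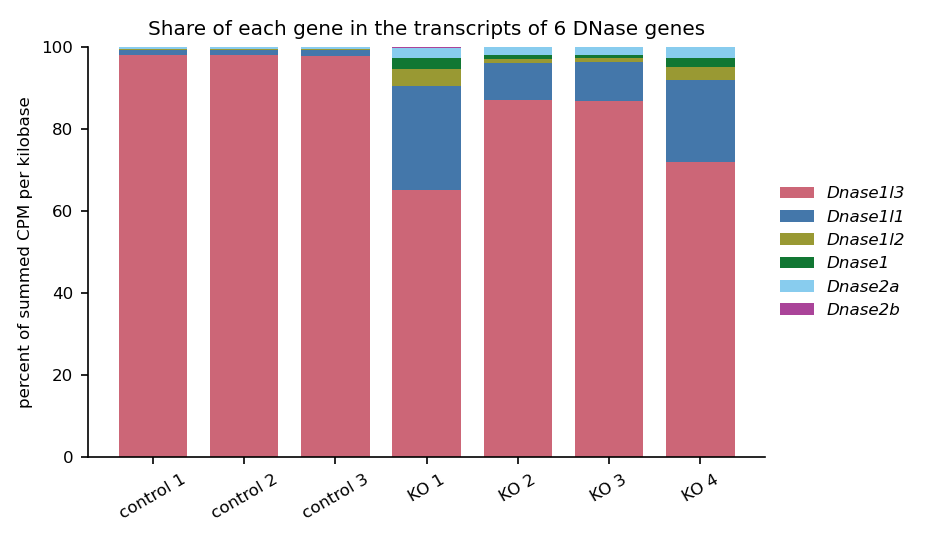
Share of each of 6 DNase genes (stacked bars, percent of their summed CPM per kilobase, adding to 100%) in each library. Dnase1l3 fills at least 97.8% of each control bar and 65.3 to 87.1% of each KO bar, where Dnase1l1 takes most of the rest.

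Dnase2a (ENSMUSG00000003812, chr8:84908560-84922915, plus strand) encodes DNase II, the acid endonuclease of lysosomes. It measured 28.0, 29.4 and 26.3 CPM in controls and 8.35, 15.8, 15.4 and 10.5 CPM in KO 1 to KO 4. The groups did not overlap, and KO 1 and KO 4 were again the lowest. The mean went from 27.9 ± 1.55 to 12.5 ± 3.67 CPM, 2.22-fold lower (log2 fold change -1.15, SE 0.206, 95% interval -1.62 to -0.69, adjusted p 0.00199). Of its 5389 exon bases, 1616 (30%) lie opposite exons of Mast1, where reads appear not to have been counted, so its level is understated. Per kilobase of unshared exon it stood at 7.39 in controls and 3.32 in KO libraries.

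Pld3 (ENSMUSG00000003363, chr7:27532000-27553218, minus strand) encodes a lysosomal exonuclease that trims single-stranded DNA and RNA from the 5′ end. It measured 106.7, 98.6 and 88.2 CPM in controls and 38.2, 51.6, 56.02 and 42.5 CPM in KO 1 to KO 4. Each KO library lay well below the lowest control. The means were 97.8 ± 9.24 (SD, n = 3) and 47.1 ± 8.16 CPM (SD, n = 4), 2.08-fold lower (log2 fold change -1.06, SE 0.136, 95% interval -1.36 to -0.75, adjusted p 0.000349). Over the 18 alternatives the log2 fold change of Pld3 lay between -1.27 and -0.79 and that of Dnase2a between -1.36 and -0.84, and each remained called lower.

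The windows of 250 bases before the start sites of these lysosomal nucleases are shown because both genes fell to about the same extent. They come from RefSeq (GRCm38.p6), 5′ to 3′ on the gene's strand, chr7:27553219-27553468 for Pld3 and chr8:84908505-84908754 for Dnase2a. RefSeq places the start of Dnase2a downstream of the GENCODE start at 84908560. Most of its window therefore lies within the gene as placed above.
Pld3: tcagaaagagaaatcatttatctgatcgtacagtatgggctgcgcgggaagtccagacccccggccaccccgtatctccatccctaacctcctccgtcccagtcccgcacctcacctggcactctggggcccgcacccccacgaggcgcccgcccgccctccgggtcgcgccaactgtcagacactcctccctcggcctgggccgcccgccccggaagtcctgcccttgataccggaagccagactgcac
Dnase2a: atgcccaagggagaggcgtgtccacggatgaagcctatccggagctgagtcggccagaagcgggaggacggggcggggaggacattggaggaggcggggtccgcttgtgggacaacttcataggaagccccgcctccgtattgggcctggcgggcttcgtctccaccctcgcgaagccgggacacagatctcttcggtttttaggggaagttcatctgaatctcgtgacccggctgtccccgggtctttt
They were searched on both strands for TGCTGA, an arm of the Maf recognition element, and for TGANTCA, the central core of that element. The core is of the type bound by AP-1 and can overlap the arm by the letters TGA. CACGTG, the core bound by lysosomal gene regulators such as TFEB, was searched for as well. Neither window holds any of these motifs, which says only that these letters are not there. Of 32851 promoter windows of the same length, 16.1% hold TGCTGA, 6.75% TGANTCA and 6.02% CACGTG. Both windows are rich in GC, at 66.4% for Pld3 and 62.4% for Dnase2a with 20 CpG each, beside a median of 52.4% and 6 CpG over all windows. RefSeq windows matched 7 of the 10 genes, and Dnase1l3, Tlr7 and Unc93b1 were not among them. Among the 9 start sites of those 7 genes, TGCTGA stood 37 and 85 bases before the starts of Trex1 and TGANTCA stood 58 bases before that of Tlr9.

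Pld4 (ENSMUSG00000052160, chr12:112760655-112768990, plus strand) encodes the sister exonuclease, known from macrophages, dendritic cells and B cells. It measured 1.35, 3.00 and 1.80 CPM in controls, from 37, 72 and 41 counts. It measured 1.66, 2.90, 0.728 and 1.12 CPM in KO 1 to KO 4, from 47, 89, 25 and 38 counts. The groups overlapped, with control 2 and KO 2 well above the others. Its log2 fold change of -0.36 (SE 0.462, 95% interval -1.40 to 0.69) was not called (adjusted p 0.554), and without control 2 it was 0.02 (adjusted p 0.980). Markers of Kupffer cells, the macrophages of the sinusoids, were also highest in those libraries, summing to 88.8, 218.0 and 138.7 CPM in controls and 72.8, 160.7, 58.96 and 34.5 CPM in KO 1 to KO 4. All 10 of these markers were detected and 1, C1qb, was called lower. Their part in the level of Pld4 was not tested.

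Trex1 (ENSMUSG00000049734, chr9:109057933-109059734, minus strand), encoding the main DNA exonuclease of the cytosol, was listed at 0 counts in all 7 libraries. All of its 1147 exon bases lie within exons of Atrip on the same strand. Among the protein-coding genes of the table, 104 have all exon bases within exons of other counted genes on the same strand, and 104 of these 104 were at 0 in every library. Of the 34 covered wholly and only by genes of the opposite strand, 33 were at 0, beside 27.8% of the 15649 genes that share no exon base. Reads in shared exons thus appear not to have been counted on either strand, and the 0 is no measure of Trex1. Atrip itself, which encodes a partner of the DNA damage kinase ATR, measured 0.801, 0.874 and 0.746 CPM in controls and 1.87, 1.07, 1.28 and 1.62 CPM in KO libraries over what it does not share. These came from 22, 21 and 17 counts in controls and 53, 33, 44 and 55 in KO 1 to KO 4. Atrip was called higher (1.81-fold, edgeR adjusted p 0.0297), a call not checked under the alternatives.

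Of the receptors, Tlr3 (ENSMUSG00000031639, chr8:45395665-45411080, minus strand) was the abundant one. It measured 58.7, 63.7 and 62.4 CPM in controls and 48.2, 49.4, 53.7 and 48.2 CPM in KO 1 to KO 4. The groups did not overlap, but all 4 KO libraries kept between 78.2 and 87.2% of the control mean. The means of 61.6 ± 2.61 and 49.9 ± 2.63 CPM gave a log2 fold change of -0.30 (SE 0.0754, 95% interval -0.47 to -0.13, adjusted p 0.0103), 1.23-fold lower. Among the 6 calls, this one alone was lost under alternatives that tested the gene. It was lost with upper-quartile factors (-0.18, adjusted p 0.0560), with library totals (-0.04, adjusted p 0.653), without control 2 (-0.28, adjusted p 0.0519) and without both KO 1 and KO 4 (-0.25, adjusted p 0.0660). Of its 5207 exon bases, 381 lie opposite exons of Gm45542, which had no counts.

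Tlr7 (ENSMUSG00000044583, chrX:167304929-167330558, minus strand), the receptor of single-stranded RNA, had 12, 32 and 12 counts in controls and 2, 5, 3 and 6 in KO 1 to KO 4. These correspond to 0.437, 1.33 and 0.526 CPM and to 0.0707, 0.163, 0.0873 and 0.177 CPM. All KO libraries were below all controls, and control 2 held 32 of the 56 control counts. The fitted log2 fold change was -2.56 (SE 0.524, 95% interval -3.75 to -1.38, adjusted p 0.00405), and without control 2 it was -1.91 (adjusted p 0.0224). The gene passed the low-count filter only through the controls, and with a filter of at least 1 CPM in 3 libraries was not tested. Control 2 was also the library with the most Kupffer cell marker RNA, at 218.0 CPM. KO 2 had the next most, at 160.7 CPM, and held less Tlr7 (0.163 CPM) than any control. The part of Kupffer cell RNA in the level of Tlr7 was not tested.

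Tlr9 (ENSMUSG00000045322, chr9:106222598-106226883, plus strand), the receptor of CpG DNA, had 3, 2 and 3 counts in controls and 1, 1, 2 and 2 in KO libraries and was not tested. In CPM all KO libraries lay below all controls, on 1 to 3 counts each. The summed 8 and 6 counts give a ratio of 0.438 after scaling. Its exact 95% interval for counting error alone, 0.125 to 1.44, includes 1, so no difference was established at this depth. A count of 3, the limit that 0 counts would allow, corresponds to 0.0873 to 0.132 CPM over the 7 libraries. Plasmacytoid dendritic cells and B cells are known for Tlr7 and Tlr9. The 6 markers of the former summed to 688 to 872 CPM in controls and 577 to 602 CPM in KO libraries, nearly all from Bst2 and Tcf4, which other cells also express. Siglech, a defining marker, lay between 0 and 0.293 CPM, a range that overlaps those of Tlr7 and Tlr9. Summed B cell markers stood at 1.97 to 3.82 CPM in controls and 1.22 to 2.33 CPM in KO libraries. The part of either cell type in these levels was not tested.

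Unc93b1 (ENSMUSG00000036908, chr19:3935186-3949340, plus strand), whose product the endosomal receptors need to leave the endoplasmic reticulum, was far more abundant per length than any of them. It measured 188.4, 174.7 and 156.5 CPM in controls and 106.5, 123.9, 127.4 and 115.1 CPM in KO 1 to KO 4. The highest KO library was below the lowest control, with KO 1 lowest once more. The mean fell from 173 ± 15.99 (SD, n = 3) to 118 ± 9.38 CPM (SD, n = 4), 1.46-fold lower (log2 fold change -0.55, SE 0.0996, 95% interval -0.78 to -0.33, adjusted p 0.00214). The call was kept under all 18 alternatives, from -0.70 to -0.29. Per length, controls held 57.1 of the chaperone's transcript against 11.8 of Tlr3, 0.187 of Tlr7 and 0.0311 of Tlr9, and KO libraries 39.0 against 9.58, 0.0305 and 0.0133 CPM per kilobase.

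Within the KO group the libraries did not hold these genes alike. KO 2 and KO 3 were both above KO 1 and KO 4 for 5 of the 8 tested members, Dnase1l3, Dnase2a, Pld3, Tlr3 and Unc93b1, an order that 27.8% of all tested genes showed. Maf itself had that order, at 28.9, 158.9, 124.5 and 37.7 CPM in KO 1 to KO 4. The hepatocyte marker sum had the reverse order. Dissociation stress genes summed to 8502, 7720 and 6449 CPM in controls and 19058, 15557, 9363 and 11754 CPM in KO 1 to KO 4, above every control, with 4 of 10 called higher. The part of hepatocyte RNA and stress in the members' levels was not tested. Without KO 1 and KO 4 the log2 fold changes were -3.15 for Dnase1l3, -0.84 for Dnase2a, -0.86 for Pld3 and -0.46 for Unc93b1, all called lower. By sequencing lane, control 3 and KO 3 came from lane 4 and the rest from lane 5. In lane 5 alone, with 2 control and 3 KO libraries, the same 6 members were lower. Log2 fold changes were -4.07 for Dnase1l3, -1.36 for Dnase2a, -1.27 for Pld3, -0.70 for Unc93b1 and -0.38 for Tlr3. Tlr7, which the filter let in only through the controls, stood at -2.66. Lane 4 holds 1 library of each group and allows no test.

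**Figure D4:**
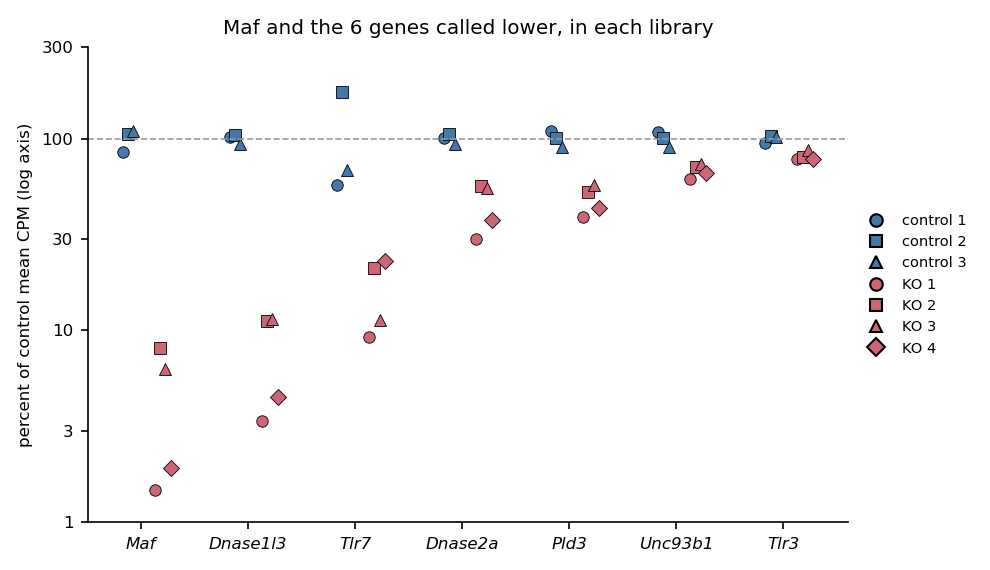
Level of Maf and of the 6 members called lower, as percent of the control mean CPM (y axis, log scale), in each of the 7 libraries. KO libraries held 1.47 to 8.08% of Maf and 3.39 to 11.4% of Dnase1l3 but 78.2 to 87.2% of Tlr3, and KO 1 and KO 4 lie below KO 2 and KO 3 for all but Tlr7.

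The genes whose levels ran most closely with Dnase1l3 were Selenop, C5ar2, Mylip, Dpp4 and Hvcn1. Likeness was Pearson's r of log2 CPM over the 7 libraries among 9294 genes averaging 3 or more on that scale, and it was 0.9995 for Selenop, 0.9992 for C5ar2, 0.9986 for Mylip, 0.9985 for Dpp4 and 0.9985 for Hvcn1. The libraries form 2 groups and share their scaling, 181 genes had an r over 0.99, and the values are a description. Selenop, the plasma selenium carrier, went from 20294 ± 1092 to 2737 ± 1252 CPM, and C5ar2, a receptor of complement C5a, from 114.4 ± 3.83 to 14.8 ± 7.02 CPM. Mylip, a ubiquitin ligase acting on the LDL receptor, was 9.68-fold lower, Dpp4, a surface dipeptidase, 7.69-fold and Hvcn1, a proton channel, 7.79-fold. Each kept a greater part of its control level than Dnase1l3 did on average.

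The surrounding pathways were followed in lists of genes chosen by function. Of 15 other nucleases tested, 6 rose (40%), 6 fell (40%) and 3 were not called (median log2 fold change 0.14). Over all genes tested, 23.0% rose and 22.2% fell. The smallest p-values belonged to secreted ribonucleases: Rnase4 from 126.2 ± 7.06 to 13.3 ± 1.31 CPM (9.48-fold, adjusted p 5.33e-07) and Ang, which encodes angiogenin and lies in the same locus, from 13.8 ± 0.660 to 2.04 ± 0.384 CPM (6.76-fold, adjusted p 1.07e-05). Rnase4 shares 13.4% and Ang 18.2% of its exon bases with other genes on the same strand, where reads appear not to have been counted. Samhd1, which hydrolyses deoxynucleotides, fell 1.54-fold. Endou, a uridine-directed endoribonuclease named after its values were seen, rose 5.39-fold from 23.0 ± 8.60 to 124.4 ± 47.6 CPM. The calls in the list split evenly by direction, each share above that of all genes tested. Secreted DNase I, encoded by Dnase1, was not called.

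**Figure D5:**
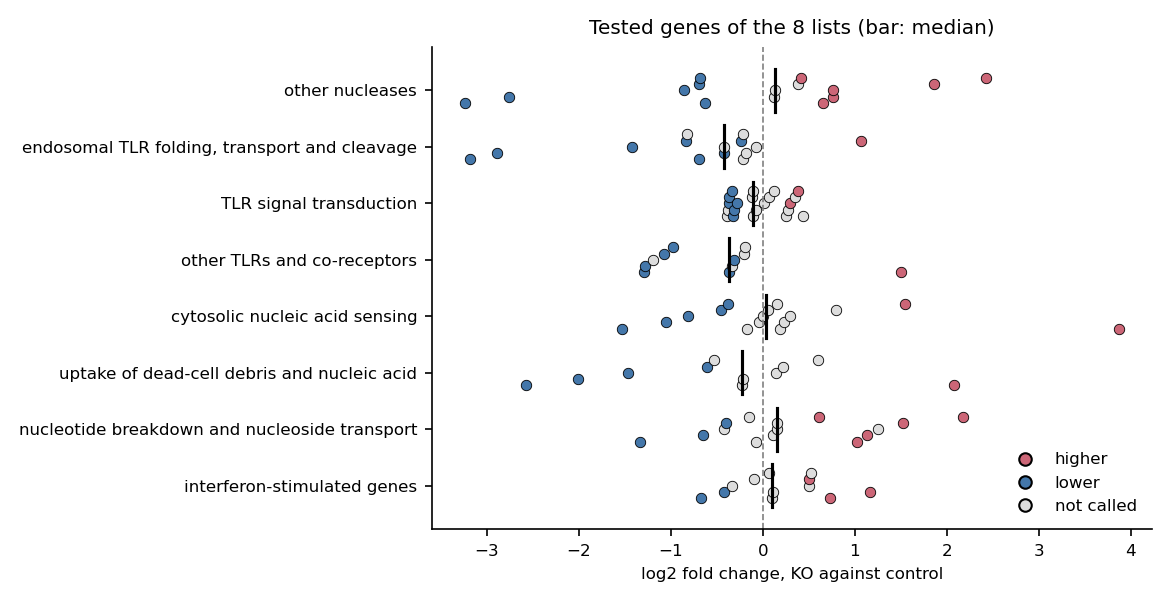
Log2 fold change of KO against control (x axis) for the tested genes of 8 functional lists, 1 point a gene, coloured by the call, with the list's median as a bar. The list on folding, transport and cleavage of endosomal receptors has the lowest median, -0.42. In it 7 genes were called lower (50%) and 1 higher (7.14%), beside 22.2 and 23.0% of all genes tested.

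Endosomal receptors must be folded, carried and then cleaved by lysosomal proteases before they signal. Of the 14 genes of that machinery, all tested, 7 fell (50%), 1 rose (7.14%) and 6 were not called (median -0.42). Over all genes tested, 22.2% fell and 23.0% rose. Proteases had the smallest p-values: Ctsl, encoding cathepsin L, fell from 2180 ± 114 to 294 ± 114 CPM (7.41-fold, adjusted p 8.20e-05) and Lgmn, encoding the asparagine endopeptidase, from 1054 ± 70.3 to 116 ± 60.2 CPM (9.07-fold, adjusted p 0.000197). Ctsb, encoding cathepsin B, fell 2.69-fold (adjusted p 0.000821). Ctsl shares 6.09% of its exon bases with other genes on the same strand and 26.8% on the opposite strand. Ctsb shares 12.8% on the opposite strand, and reads in shared exons appear not to have been counted. Ctsk, encoding cathepsin K, rose from 7.13 ± 1.31 to 14.9 ± 2.02 CPM (adjusted p 0.000992). These genes serve lysosomal breakdown of protein in general and not the receptors alone.

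Of 21 tested signal transducers below the receptors, 2 were higher (9.52%), 6 lower (28.6%) and 13 not called (median -0.10). Over all genes tested these shares were 23.0 and 22.2%. Ikbkg, encoding the regulatory subunit NEMO, fell 1.29-fold (adjusted p 0.00618), a call lost with library totals (-0.10, adjusted p 0.295). The 2 that rose were Irak1, a kinase of the receptor complex, by 1.23-fold (adjusted p 0.0176) and Myd88, the adaptor of TLR7 and TLR9, by 1.30-fold (adjusted p 0.0340), the latter named after its values were seen. The call on Irak1 was lost without control 2 (adjusted p 0.0651), without control 3 (0.0916), without both KO 1 and KO 4 (0.0631) and in lane 5 alone (0.0739). That on Myd88 was lost without control 1 (0.0699), control 2 (0.0976), control 3 (0.101), KO 1 (0.0649) or KO 2 (0.0810), without both KO 1 and KO 4 (0.0508) and in lane 5 alone (0.0601).

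Of 11 tested genes for other Toll-like receptors and their partners, 6 were lower (54.5%), 1 higher (9.09%) and 4 not called (median -0.36). Over all genes tested these shares were 22.2 and 23.0%. Ly96, encoding the MD-2 partner of TLR4, fell from 28.0 ± 1.32 to 11.5 ± 1.07 CPM (2.43-fold, adjusted p 3.23e-05), and Lbp, which encodes the lipopolysaccharide-binding protein, from 181.9 ± 18.8 to 92.7 ± 16.6 CPM (1.96-fold, adjusted p 0.000624). Tlr12 was 2.10-fold lower from 2.81 ± 0.575 CPM. Tlr5, the flagellin receptor and the 1 gene called higher, stood at only 0.130 ± 0.0768 and 0.384 ± 0.0224 CPM, from 2 to 6 counts in controls and 10 to 14 in KO libraries. It passed the filter only through the KO libraries, and its call was lost with DESeq2 (adjusted p 0.0745), in lane 5 alone (0.113), without control 2 (0.0894), without control 3 (0.0766) and without both KO 1 and KO 4 (0.0755).

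The cytosolic sensors, which meet nucleic acid that has escaped degradation, showed 2 of 16 genes higher (12.5%), 5 lower (31.25%) and 9 not called (median 0.03). Over all genes tested these shares were 23.0 and 22.2%. Cgas, the sensor of cytosolic DNA, rose from 5.81 ± 0.505 to 17.0 ± 3.78 CPM (2.92-fold, adjusted p 0.000238), while Tmem173, encoding its effector STING, was not called (62.8 ± 4.95 and 65.4 ± 8.53 CPM, adjusted p 0.691). Oas2, an interferon-induced antiviral enzyme, rose 14.7-fold from 5.29 ± 1.37 to 77.7 ± 40.4 CPM (adjusted p 0.000197), a log2 fold change of 3.88 that was 3.06 without KO 1 and KO 4. Ifi204, of the interferon-inducible p200 family, fell from 175.9 ± 5.78 to 60.8 ± 4.07 CPM (2.89-fold, adjusted p 6.31e-06), and Mavs, the adaptor of RNA sensing at mitochondria, fell 1.76-fold.

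Uptake of dead cells and their chromatin comes before degradation. Of the 11 tested genes of that list, 4 fell (36.4%), 1 rose (9.09%) and 6 were not called (median -0.22). Over all genes tested, 22.2% fell and 23.0% rose. Mertk, a receptor tyrosine kinase for apoptotic cells, fell from 637 ± 71.3 to 158 ± 22.2 CPM (4.03-fold, adjusted p 1.57e-05). Its bridging ligands fell with it, Gas6 5.98-fold (747 ± 37.3 to 124.9 ± 37.2 CPM, adjusted p 4.08e-05) and Pros1 2.77-fold (adjusted p 0.000586). Hmgb2, a chromatin protein that binds DNA and is also tied to cell division, rose from 27.2 ± 4.35 to 115 ± 18.5 CPM (4.23-fold, adjusted p 2.41e-05).

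Over all 8 lists, each gene once, 113 of 122 genes found were tested, of which 39 were lower (34.5%) and 21 higher (18.6%), beside 22.2 and 23.0% of all genes. That split depends on the scaling: with library totals 24 were lower and 37 higher. The lists too were chosen with earlier results of these data known. Higher calls made up 50.8% of all calls under TMM, 63.4% under upper-quartile scaling and 76.3% under library totals, as the median log2 fold change of all genes moved from 0.04 to 0.17 and 0.31. Dnase1l3, Dnase2a, Pld3 and Unc93b1 were called lower under each of these 3 scalings. So was Tlr7, which the filter let in only through the controls.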

How the data were processed

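Polyadenylated RNA of sorted mouse liver endothelial cells was sequenced in 3 control and 4 Maf KO libraries. The authors deposited a table of whole-number counts of reads for each Ensembl ID, with no normalization. FastQC 0.11.5, STAR 2.7.6a and build GRCm38 are named per the submitters' processing notes. What counted the reads, with which annotation, strand setting and filter, was not given in the sources used here, and the labels' protocols name an unstranded and a stranded kit without saying which library had which. Of 52636 IDs, 52489 matched a symbol and 147 did not.

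Genes were filtered with edgeR's filterByExpr (minimum count 10, total 15), scaled by TMM and tested with edgeR 4.0.16 quasi-likelihood F-tests in R 4.3.3, with genotype as the only term and Benjamini-Hochberg adjustment over the 15512 genes tested, threshold 0.05. SE is the size of the log2 fold change over the root of F, and 95% intervals use the moderated degrees of freedom. The procedure was tested on simulated data. Alternatives were DESeq2 1.42.0, limma 3.58.1 (voom), other scalings and filters, lane, a replicate block, leaving out each library and, chosen after seeing the data, leaving out KO 1 and KO 4 together. Exon lengths, overlaps and coding ends came from GENCODE M21, whose use by the authors is not known, and promoters from RefSeq (GRCm38.p6). Chi-square per degree of freedom between libraries of a group was 13.2 to 96.1, more than counting noise, so each was used as a library of its own. Depth was 24772716 to 32960007 counts, and intervals from counts cover counting error only.

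Named were the 10 members, up to 4 called genes of each list, by smallest p, other list members by value, the 5 genes most correlated with the member of largest change (leaving out predicted and clone names), and those stated as named after their values were seen. The members and lists were chosen with earlier results of these data known.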

Additional observations from a re-analysis of the deposited data

Results flagged for a closer look

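The summed plasmacytoid dendritic cell markers of KO 1 stood apart from the other 3 KO libraries at 577 CPM, the nearest being at 601 CPM, a gap of 0.972 of the group's whole range. Nearly all of that sum is Bst2 and Tcf4, which other cells also express. Among 62 such groups of 4 values examined, chance marks about 1 in 20. The sum does not enter any value of the 10 genes.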

How the results depend on the processing

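Dnase1l3, Dnase2a, Pld3 and Unc93b1 were called lower under all 18 alternatives. Tlr7, which passed the main low-count filter only through the controls, was called lower under the 17 that tested it. Members called lower numbered 6, or 5 with upper-quartile factors, library totals, the 1 CPM filter, the replicate block, without control 2 and without KO 1 and KO 4 together, and leaving out 1 library gave 5 to 6. No alternative called a member higher. Pathway genes called higher went from 21 to 32 under upper-quartile scaling and 37 under library totals, and those lower from 39 to 24 with library totals. Over all genes, 3561 higher calls became 6373 with library totals and 2234 without KO 1 and KO 4 together, and 3448 lower calls became 1976 with library totals. Leaving out 1 library gave 2379 to 3769 higher and 2584 to 3930 lower. The sign turned for Dnase1l1 with library totals (0.12) and for Pld4 without control 2 (0.0204), neither called; leaving out 1 library put Pld4 between -0.82 and 0.02. The causes were not tested, apart from the smaller number of libraries where some were left out.

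With replicate number as a block (controls 1 to 3, KO 1 to KO 3), 2448 genes were higher and 2607 lower of 15109, and 5 members lower, Tlr3 being lost (-0.29, adjusted p 0.0540). Same-numbered libraries deviated together with correlations of -0.01, 0.16 and 0.07, so the numbers are not taken to pair the libraries, and not every library correlated best with its own number. Depth limits Tlr9, and Tlr7 and Pld4 rest on few reads. Trex1 was not measured.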

Other observations

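Of 15 tested genes that recycle the products of nuclease action, 5 were higher (33.3%), 3 lower (20%) and 7 not called (median log2 fold change 0.15), beside 23.0 and 22.2% of all genes tested. Adk, encoding adenosine kinase, rose from 12.7 ± 1.13 to 27.9 ± 1.39 CPM (2.20-fold, edgeR adjusted p 4.43e-05). Among nucleoside transporters, Slc29a1, the abundant one, fell from 922 ± 46.6 to 586 ± 49.7 CPM (1.57-fold, adjusted p 0.00168), and Slc29a2 rose from 0.899 ± 0.0586 to 4.08 ± 1.03 CPM (4.51-fold, adjusted p 0.000302). Upp1, encoding uridine phosphorylase, rose 1.53-fold (adjusted p 0.00184).

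Of 12 interferon-stimulated genes, 3 were higher (25%), 2 lower (16.7%) and 7 not called (median 0.10), shares near the 23.0 and 22.2% of all genes tested. Isg15, a ubiquitin-like modifier, rose from 24.8 ± 7.24 to 55.8 ± 13.8 CPM (2.24-fold, edgeR adjusted p 0.00415), while Bst2, encoding tetherin, fell from 519.7 ± 83.3 to 325.7 ± 28.4 CPM (1.60-fold, adjusted p 0.00324). Mx2, a gene of the Mx family of antiviral GTPases, rose 1.66-fold (adjusted p 0.0141), a call lost without control 2 (adjusted p 0.0549). The strain is not given, and whether Mx2 makes a working product in these mice was not tested.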
